A study of Mus musculus with 4 samples.

Results

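The cytidine monophosphate-sialic acid hydroxylase gene Cmah, the activating enzyme gene Cmas and 8 sialyltransferase genes were examined by RNA sequencing in the stromal vascular fraction (SVF) of inguinal white adipose tissue (iWAT). The genes were St8sia1, St8sia4, St8sia6, St6gal1, St3gal1, St3gal4, St3gal5 and St3gal6, and they were taken by their symbols. All 10 were among the 26214 gene symbols counted in each library, and all 10 passed the filter on low counts. They were picked because of how they stood in mice given a medicinal herb extract (MHE) against mice given phosphate-buffered saline (PBS), so their differences between these groups are given as a description. Each group had 2 libraries, which the labels call biological replicates, and totals ran from 27161882 to 33391075 counts. No genotype, age or other treatment is labelled for either group, and nothing in the sources used here gives the extract's make-up, dose or duration, the strain, or whether a library pools animals. The protocols speak of triplicate libraries, of which 2 per treatment were analysed here.

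Sialic acids are the acidic sugars that end many of the sugar chains on cell surface proteins and lipids. Cmas joins N-acetylneuraminic acid to cytidine monophosphate in the nucleus, Cmah can then hydroxylate the sugar to its N-glycolyl form, and sialyltransferases of the Golgi move it from the nucleotide onto a chain. Each transferase prefers an acceptor and a linkage, so the set a cell makes shapes which lectins bind it, among them the Siglecs of white blood cells and the selectins of vessels and leukocytes. Humans carry an inactive CMAH gene, whereas mice make both forms of the sugar.

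The SVF is digested fat from which floating adipocytes have been removed. Adipocyte markers (Adipoq, Plin1, Lep, Cidec and Fabp4) summed to between 10200 and 30400 CPM (counts scaled to library size and composition) in these libraries, against 382 to 606 CPM for progenitor and fibroblast markers, so adipocyte transcripts were abundant in all 4. Lymphocyte markers separated the groups: the 6 T cell markers counted here summed to 569 and 431 CPM with MHE and to 20.7 and 6.46 CPM in PBS replicates 1 and 2, and the 7 B cell markers to 1750 and 1360 CPM against 97.0 and 5.78 CPM. No marker of either list was at 0 in a group. Other lists lay the opposite way: smooth muscle and pericyte markers summed to 390 and 718 CPM with MHE against 1910 and 2950 CPM with PBS, and adipocyte markers to 18500 and 10200 against 22100 and 30400 CPM. Fabp4 was the largest part of the adipocyte sums, at 13100 and 6060 against 11800 and 15600 CPM, with overlap. Adipoq, Plin1, Lep and Cidec were lower in both MHE libraries than in either PBS library. Epithelial markers reached 131 CPM in PBS replicate 1 and 2.06 to 6.18 CPM in the other libraries. The part of these cell types in the differences below was not tested, and in bulk RNA fewer cells of a type and less RNA per cell cannot be told apart.

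Promoter windows of the members that differed most between the groups, and of Cmas, which hardly differed, are shown to let their sequence be compared. Cmah lies at chr13:24327404-24477289 in GRCm38, the assembly behind mm10, Cmas at chr6:142756686-142775714, St8sia1 at chr6:142821541-142989528 and St6gal1 at chr16:23224729-23360350. Each window is the RefSeq sequence (GRCm38.p6) from 250 bases before to 50 bases after an annotated start, written along the gene's strand. The St8sia1 window lies inside the span given for this minus-strand gene, at an inner start and not at its outer end (142989528). RefSeq windows were present for Cmah, Cmas, St8sia1, St8sia4, St8sia6, St6gal1, St3gal4, St3gal5 and St3gal6 (9 of the 10 genes). Capitals mark CpG dinucleotides, the bases at which vertebrate DNA is mostly methylated.
Cmah first start, chr13:24327154-24327453, plus strand: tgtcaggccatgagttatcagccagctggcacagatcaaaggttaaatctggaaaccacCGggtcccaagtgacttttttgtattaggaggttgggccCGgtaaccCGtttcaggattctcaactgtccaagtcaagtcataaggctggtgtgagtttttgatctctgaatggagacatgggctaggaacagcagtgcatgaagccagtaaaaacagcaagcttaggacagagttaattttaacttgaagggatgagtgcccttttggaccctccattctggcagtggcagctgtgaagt
Cmah second start, chr13:24414872-24415171, plus strand: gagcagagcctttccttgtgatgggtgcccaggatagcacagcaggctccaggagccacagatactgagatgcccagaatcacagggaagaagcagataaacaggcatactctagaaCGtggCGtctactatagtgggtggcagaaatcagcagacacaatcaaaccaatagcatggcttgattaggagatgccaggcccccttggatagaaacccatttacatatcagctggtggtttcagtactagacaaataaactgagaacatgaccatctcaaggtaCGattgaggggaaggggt
St8sia1, chr6:142964403-142964702, minus strand: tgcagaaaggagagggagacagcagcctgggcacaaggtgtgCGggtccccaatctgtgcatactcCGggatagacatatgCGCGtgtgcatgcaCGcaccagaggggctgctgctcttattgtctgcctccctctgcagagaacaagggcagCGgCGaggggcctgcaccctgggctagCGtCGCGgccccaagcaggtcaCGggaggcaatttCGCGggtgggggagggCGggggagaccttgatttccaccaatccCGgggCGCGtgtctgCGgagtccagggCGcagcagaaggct
St6gal1 first start, chr16:23224490-23224789, plus strand: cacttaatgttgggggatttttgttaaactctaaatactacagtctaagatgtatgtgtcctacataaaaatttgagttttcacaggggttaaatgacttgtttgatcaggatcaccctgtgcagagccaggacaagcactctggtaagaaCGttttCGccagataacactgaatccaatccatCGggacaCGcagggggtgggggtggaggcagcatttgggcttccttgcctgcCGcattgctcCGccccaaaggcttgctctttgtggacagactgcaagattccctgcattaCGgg
Cmas, chr6:142756436-142756735, plus strand: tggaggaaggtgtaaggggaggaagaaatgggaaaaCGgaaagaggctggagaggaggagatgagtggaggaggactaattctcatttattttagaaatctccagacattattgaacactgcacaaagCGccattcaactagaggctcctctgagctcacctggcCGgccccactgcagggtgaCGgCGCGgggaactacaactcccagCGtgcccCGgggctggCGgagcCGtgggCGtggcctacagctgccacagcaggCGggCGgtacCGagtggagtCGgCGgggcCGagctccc

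Both Cmah windows held 3 CpG, at the lower quartile of all 32807 mouse promoter windows (median 7, quartiles 3 and 20). The St6gal1 window shown held 7, and the windows at its other starts 10 and 6. Cmas held 17 and St8sia1 19, St8sia4 had 22, St3gal4 31, St3gal5 33 and St8sia6 39, while the starts of St3gal6 had 3 and 20. The neighbours Cmas and St8sia1, whose levels differ least and most between the groups, had nearly the same number, the St8sia1 window being that of an inner start. Of 6 motifs searched on both strands, the ETS letters CCGGAAGT, the PU.1 letters GAGGAAGT, the octamer ATGCAAAT and the TATA letters TATAAA were in none of the members' windows. These motifs occur in 3.89%, 3.2%, 1.74% and 13.6% of all windows. The GC box GGGCGG, found in 35.6% of all windows, was in that of St8sia1 from 22 to 17 bases before the start, in that of Cmas from 13 to 18 bases after it and in the first of St6gal1. It was also in windows of St8sia4, St8sia6, St3gal4, St3gal5 and St3gal6, and in neither of Cmah. The RUNX letters TGTGGT, in 16.8% of all windows, occurred in those of St8sia4 and of the first start of St3gal6.

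Of the enzymes that act on the sugar before its transfer, the hydroxylase stood apart between the groups and the activating enzyme did not. Cmah had 146 and 159 CPM in MHE replicates 1 and 2 and 12.2 and 14.9 CPM in PBS replicates 1 and 2. Both MHE libraries were thus far above both PBS libraries, and the libraries of a group lay close together. The means were 152 ± 9.16 and 13.6 ± 1.96 CPM (SD, n = 2 each), an 11.2-fold ratio, and the fitted log2 fold change was 3.49 ± 0.23 (standard error, SE). Cmas had 40.0 and 31.6 CPM with MHE and 42.4 and 28.4 CPM with PBS. Its groups overlapped, replicate 1 being the higher library in each, and the fitted difference of 0.02 ± 0.28 was smaller than its error. The sign of the Cmas difference turned with median-of-ratios scaling (-0.01), and leaving out 1 library moved it from -0.24 to 0.32.

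The ST8Sia enzymes add a sialic acid to one already in place. St8sia1, which makes the ganglioside GD3, had 26.6 and 24.6 CPM with MHE and 0.397 and 0.27 CPM with PBS, that is 883 and 700 counts against 11 and 8. Hardly a read of it was present in either PBS library, and both MHE libraries were alike. The ratio of means was 76.6 and the log2 fold change 6.25 ± 0.33, the highest of the 10. Cmas, whose level was nearly equal in the groups, ends 45826 bases from St8sia1 on chromosome 6, with 3 gene models between them.

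St8sia4, a polysialyltransferase that builds long sialic acid chains on few proteins, was present in every library. Its values were 83.1 and 90.4 CPM with MHE against 50.7 and 37.9 CPM with PBS. The groups did not overlap, and the log2 fold change was 0.97 ± 0.23. St8sia6, which extends sialic acids on glycoproteins, had 8.49 and 12.3 CPM against 2.92 and 3.24 CPM, with no overlap and a log2 fold change of 1.75 ± 0.33. It was the member whose MHE libraries lay furthest apart in ratio (0.693, replicate 1 over 2).

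St6gal1 caps galactose on N-glycans in the linkage that the B cell Siglec Cd22 binds. It had 171 and 153 CPM with MHE and 51.8 and 43.6 CPM with PBS. Both MHE libraries were far above both PBS libraries, with means of 162 ± 12.9 and 47.7 ± 5.77 CPM (SD, n = 2 each) and a log2 fold change of 1.76 ± 0.22.

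The ST3Gal enzymes use another linkage to galactose. St3gal1, the enzyme of the common core O-glycan, had 115 and 140 CPM with MHE against 59.0 and 67.0 CPM with PBS (log2 fold change 1.02 ± 0.22). St3gal6, one of the enzymes behind selectin ligands, had 48.2 and 36.4 CPM against 15.7 and 29.9 CPM. The MHE libraries lay above the PBS libraries for both genes, but the PBS libraries of St3gal6 (ratio 0.524) lay about as far apart as the group means (ratio 1.86, log2 fold change 0.89 ± 0.37). St3gal4, which acts on N-acetyllactosamine chains, had 28.3 and 28.0 CPM against 22.3 and 21.9 CPM, a small difference of 0.35 ± 0.19 with close libraries. St3gal5, the synthase of the ganglioside GM3, had 14.6 and 11.1 CPM with MHE and 20.5 and 14.0 CPM with PBS. Its groups overlapped, and it was the one member with a negative fitted difference (-0.42 ± 0.30).

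**Figure D1:**
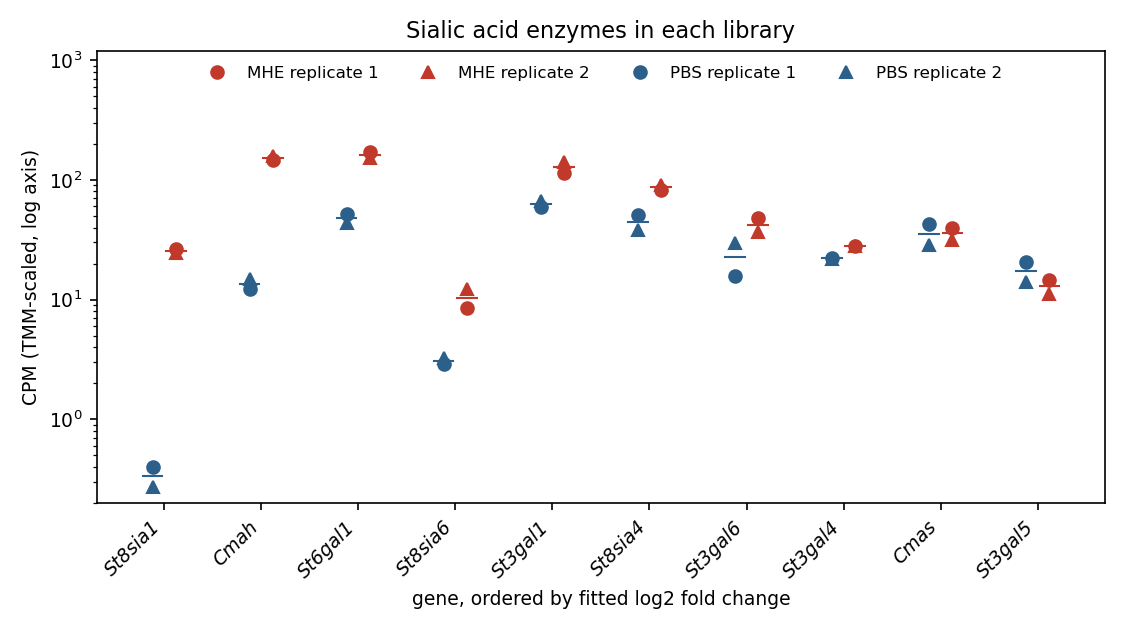
CPM of each gene in each library on a log axis, with MHE in red and PBS in blue, circles for replicate 1, triangles for replicate 2 and short bars for group means (n = 2). St8sia1, Cmah and St6gal1 show the widest gaps on this axis, and Cmas and St3gal5 overlap.

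Over the 10 genes, 3 passed the edgeR quasi-likelihood test over all genes higher with MHE (St8sia1, Cmah and St6gal1) and none passed lower. Of all 16196 genes tested, 3.97% passed higher and 0.963% lower. At an unadjusted p under 0.05 there were 6 members higher and 0 lower, against 16.7% and 11.8% of all genes. DESeq2 called 6 higher and 0 lower (10.6% and 7.53% of all genes), and limma-voom 3 and 0 (5.5% and 1.5%). Both MHE libraries lay above both PBS libraries for 8 members and below them for 0, as for 33.1% and 28.9% of all tested genes. The median log2 fold change was 0.99 over the members and -0.02 over all genes tested. Because the members were picked from this contrast, these counts are a description and carry no test. Without MHE replicate 1 and without MHE replicate 2 no gene of the whole table passed, and so 0 of 10 members did. St8sia1, Cmah and St6gal1 then had log2 fold changes of 6.20, 3.56 and 1.69 and of 6.31, 3.44 and 1.85. Without PBS replicate 1, 5 members passed (St8sia4 and St8sia6 in addition, at 1.18 and 1.66), where 10.5% of genes passed higher and 5.99% lower. Without PBS replicate 2, 6 passed (St8sia6, St3gal1 and St3gal6 in addition, at 1.83, 1.12 and 1.44), where 7.45% passed higher and 7.18% lower. St3gal6 had 0.49 without PBS replicate 1. Scaling by library totals alone, which moved the median of all genes from -0.02 to 0.14, called St8sia6 and St3gal1 as well (5.11% of all genes passed higher), and a stricter low-count filter called St8sia6 (5.09%). Without a low-count filter and with the replicate number as a block the same 3 genes passed, where 3.28% and 3.54% of all genes passed higher.

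Reads cannot be assigned between strands here, since the use of strand is not given in the sources. In GENCODE M21, exons of St3gal6 share 1603 bases with Dcbld2 on the opposite strand, and Dcbld2 had 513 and 914 counts with MHE against 1948 and 2871 with PBS, a difference in the other direction. St3gal4 shares 412 bases with an antisense model, St6gal1 200 with BC106179, St8sia1 149 with Gm7457 and St8sia6 112 with Gm37126. Counts of BC106179 (51 and 55 against 14 and 17) and of Gm7457 (19 and 10 against 0 and 1) were small beside those of St6gal1 and St8sia1. St3gal4's antisense model, 4930581F22Rik, had 81 and 95 counts with MHE against 18 and 21 with PBS, in the same direction as the small difference of St3gal4 (940 and 798 against 619 and 648 counts).

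Per kilobase of exon (GENCODE M21), a scale on which the levels of genes can be set beside each other, St6gal1 led with MHE at 34.8 and 31.1 CPM per kb. St3gal1 followed at 16.8 and 20.4, then Cmah at 13.7 and 14.9 and St3gal4 at 9.68 and 9.58, with no overlap between these 4. Next stood Cmas at 8.48 and 6.70 and St3gal6 at 7.81 and 5.90, which overlapped each other, and St3gal5 at 5.59 and 4.24 overlapped St8sia4 at 4.14 and 4.50. The lowest were St8sia1 at 2.85 and 2.63 and St8sia6 at 1.11 and 1.60 CPM per kb.

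With PBS the order differed at several places. St6gal1 (10.5 and 8.88 CPM per kb), St3gal1 (8.61 and 9.78), Cmas (9.01 and 6.02), St3gal4 (7.64 and 7.49) and St3gal5 (7.82 and 5.33) formed a chain of levels in which neighbours overlapped. St3gal6 (2.54 and 4.85) and St8sia4 (2.52 and 1.88) came next and were separated only narrowly. Cmah, among the 3 highest with MHE, stood below them at 1.14 and 1.40 CPM per kb. St8sia6 followed at 0.381 and 0.423, and St8sia1 was lowest at 0.0425 and 0.0289.

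Set against 20 sialyltransferase genes, St6gal1 took 29.7% and 25.6% of the summed CPM per kb with MHE and 12% and 8.92% with PBS. It ranked 1 of the 20 in both MHE libraries and 2 and 5 in the PBS libraries. The summed level was 117 and 121 CPM per kb with MHE and 88.1 and 99.5 with PBS. The 6 ST3Gal genes together stood at 57.6 and 63.2 CPM per kb with MHE and 55.4 and 67.5 with PBS, with overlap. Within them St3gal1 took more of the sum with MHE (14.3% and 16.8% against 9.77% and 9.82%), and St3gal3, an enzyme of N-glycans that is not one of the 10 genes, took less (8.44% and 8.14% against 21.3% and 20.4%). St3gal3 was the highest of the 20 per length in both PBS libraries, at 18.8 and 20.4 CPM per kb, and St3gal2 came close to it in PBS replicate 2, at 19.7. The 6 ST6GalNAc genes summed to 16.7 and 18.1 CPM per kb with MHE and 19.1 and 20.8 with PBS. The ST8Sia genes took 6.94% and 7.33% of the sum against 3.48% and 2.4%. Which cells these transcripts came from was not tested.

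**Figure D2:**
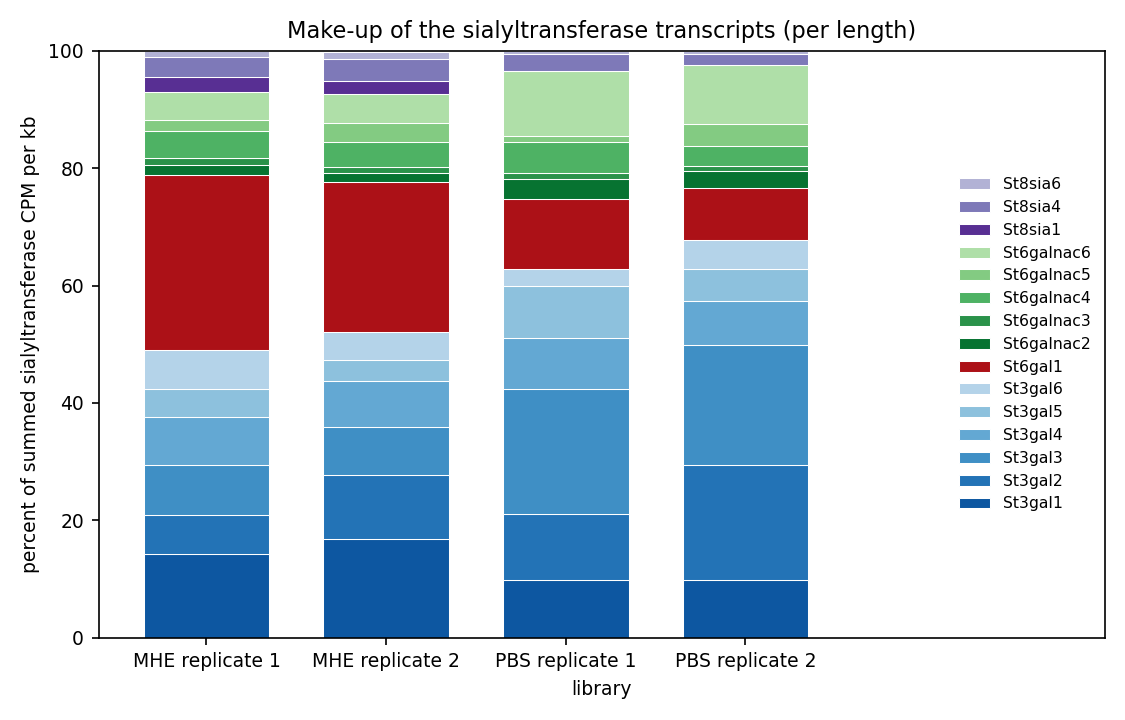
Percent of the summed sialyltransferase CPM per kb taken by each gene in each library (ST3Gal in blue, St6gal1 in red, ST6GalNAc in green, ST8Sia in purple; genes under 1% in every library are left out). St6gal1 takes 25.6% to 29.7% of the MHE bars and 8.92% to 12% of the PBS bars.

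The PBS libraries differed from each other far more in lymphocyte markers than in these enzymes. B cell markers were 16.8-fold and T cell markers 3.21-fold higher in PBS replicate 1 than in PBS replicate 2, and high endothelial venule markers 10.1-fold. For the enzymes the same ratio lay between 0.524 (St3gal6) and 1.5 (Cmas). Cmah and St8sia6 were slightly lower in PBS replicate 1 (ratios of 0.814 and 0.901). St8sia1 (1.47, on 11 and 8 counts) and St6gal1 (1.19) were higher in it. No member was 2-fold apart between the PBS libraries, and 16.4% of 15919 genes with counts in both were. The median absolute log2 ratio between these libraries was 0.36 for the members and 0.35 for all genes tested. The members' spread was thus like that of genes at large. Dendritic cell markers summed to 259 and 197 CPM with MHE and 23.9 and 22.1 CPM with PBS. Ccr7, the lymph node homing receptor gene, made up 154 and 134 CPM of the MHE sums, and Zbtb46 hardly differed between the groups (0.13 ± 0.30). The near equal PBS sums hide opposite members: the ratio of PBS replicate 1 to 2 was 6.44 for Ccr7, 2.14 for Flt3 and 2.03 for Xcr1, and 0.682 for Siglech and 0.644 for Zbtb46. Lymphatic endothelial markers summed to 175 and 178 against 77.8 and 64.2 CPM. Lyve1 made up 122 and 111 CPM of the MHE sums and alone in this list passed the edgeR test. Prox1 (3.50 ± 0.76) and Flt4 (1.03 ± 0.24) had positive fitted values, and Pdpn a negative one with overlap (-0.60 ± 0.48). Macrophage markers summed to 407 and 712 against 931 and 505 CPM. Whether the enzymes' transcripts came from any of these cell types was not tested.

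**Figure D3:**
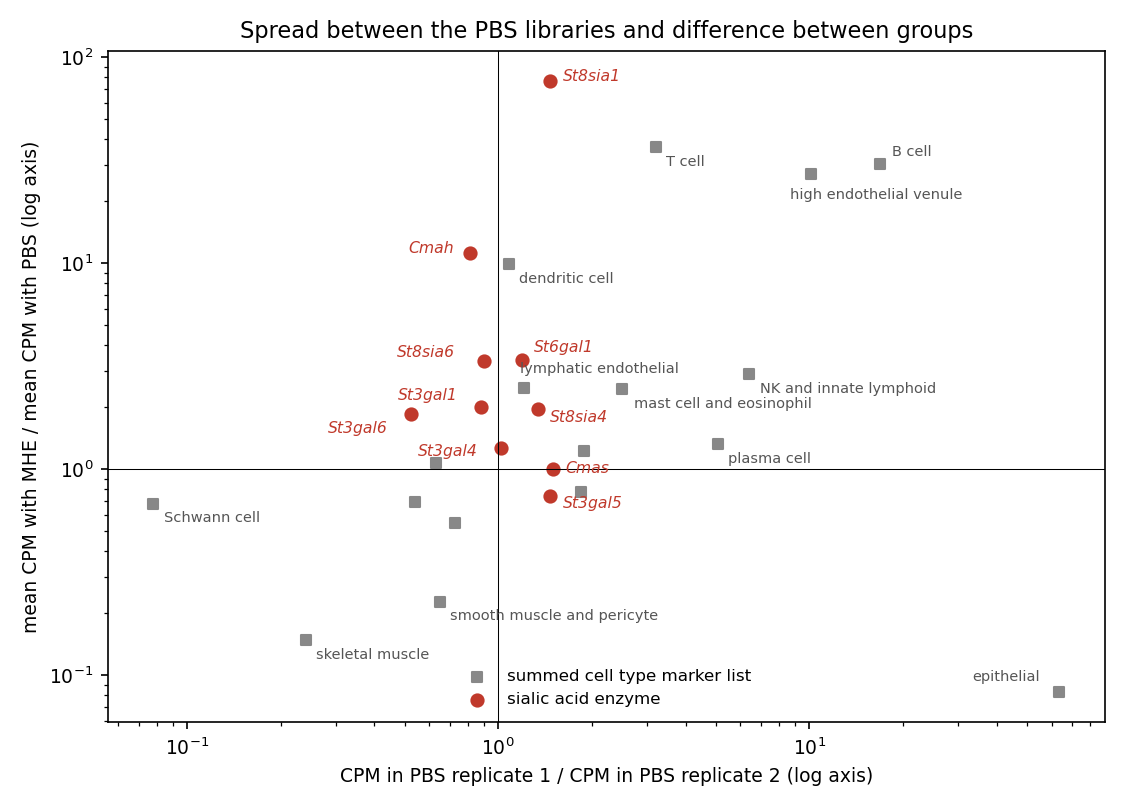
Ratio of the PBS libraries (horizontal, log axis) against the ratio of group means (vertical, log axis) for each of the 10 enzymes (red) and for the summed CPM of each of 17 cell type marker lists (grey). The enzymes lie between 0.524 and 1.5 on the horizontal axis, whereas T cell, high endothelial venule and B cell lists lie at 3.21, 10.1 and 16.8. The venule sum was only 4.08 and 0.406 CPM in the PBS libraries, and the T cell marker Cd8a alone had a ratio of 1.56.

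Other genes of sialic acid biology were followed in 8 lists of 68 genes, of which 61 were tested. Of these, 7 passed the edgeR test higher with MHE, where 3.97% of all genes did, and 0 passed lower, where 0.963% did. Their median log2 fold change was 0.07. At an unadjusted p under 0.05, 17 were higher and 6 lower, against 16.7% and 11.8% of all genes. DESeq2 called 13 and 4 (10.6% and 7.53% of all genes), and limma-voom 9 and 1 (5.5% and 1.5%). These shares of all genes also apply beside the counts of each list below.

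Of the other 12 sialyltransferases, 8 were tested and none passed in either direction (median -0.25). At an unadjusted p under 0.05, 1 was higher and 3 lower, DESeq2 called 0 and 2, and limma-voom 0 and 1. St3gal3, added to the list after its counts were seen, had 27.4 and 27.3 CPM with MHE and 52.1 and 56.3 CPM with PBS. Its groups were far apart in relation to their spread, and its log2 fold change of -0.99 ± 0.18 just missed the threshold (edgeR adjusted p = 0.0508). It passed lower with median-of-ratios scaling (adjusted p = 0.0496), with the stricter filter (0.0455) and without PBS replicate 1 (0.0286). St6galnac6, an enzyme of complex gangliosides, had 27.1 and 28.7 CPM with MHE and 47.0 and 48.2 CPM with PBS (log2 fold change -0.77 ± 0.18, edgeR adjusted p = 0.0758). St6galnac2 (-0.66 ± 0.21), St6galnac3 (0.82 ± 0.25) and St6galnac4 (0.37 ± 0.23) had groups without overlap but were called by none of edgeR, DESeq2 and limma-voom. Of all tested genes, 33.1% had both MHE libraries above both PBS libraries and 28.9% below. St6gal2 and St6galnac1 had 0 counts in every library, and St8sia3 and St8sia5 had at most 4. A count of 0 allows up to 3 counts in a library at these depths.

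Genes that make, move and alter the sugar were nearly level. None of the 9 passed, none had an unadjusted p under 0.05, and neither DESeq2 nor limma-voom called any. Gne, the first enzyme of the route, had a log2 fold change of -0.32 ± 0.20, Slc35a1, the Golgi carrier of the activated sugar, -0.19 ± 0.19, and Slc17a5, the lysosomal exporter, -0.32 ± 0.22. The median of the list was -0.19, and fitted values ran from -0.33 (Npl, which cleaves sialic acid) to 0.34 (Nanp, a phosphatase of the route). Cmas, of the same route, thus stood with these genes rather than with Cmah in its values.

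Of 6 genes of sialic acid removal, 4 were tested and none passed (1 higher and 1 lower at an unadjusted p under 0.05, none by DESeq2 or limma-voom). The lysosomal sialidase Neu1 had 55.1 and 54.0 CPM with MHE against 57.5 and 52.4 CPM, and the membrane sialidase Neu3 7.56 and 8.71 against 4.76 and 4.43 CPM (0.82 ± 0.29, edgeR adjusted p = 0.148). Glb1, which shares a lysosomal complex with Neu1, had -0.62 ± 0.19, and Ctsa, the complex's protective protein, -0.58 ± 0.30. Neu4 was at 0 in all libraries, and Neu2 had 26 counts in PBS replicate 1 and 0 elsewhere.

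Among 11 sialic acid receptors, 4 rose with MHE and none fell (median 0.62; 5 higher and 0 lower at an unadjusted p under 0.05, by DESeq2 and by limma-voom). Cd22, the B cell Siglec, had 207 and 155 CPM with MHE and 11.6 and 2.26 CPM with PBS (log2 fold change 4.71 ± 0.84, edgeR adjusted p = 0.0491), and it is also one of the B cell markers above. Siglec1, a macrophage receptor, had 91.4 and 89.5 against 34.5 and 25.3 CPM (1.60 ± 0.23, edgeR adjusted p = 0.0375). Both MHE libraries were high for these genes, and the PBS libraries differed more for Cd22 than for Siglec1.

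Siglech, of plasmacytoid dendritic cells, rose by 3.97 ± 0.53 (edgeR adjusted p = 0.0329) and Cd33 by 1.56 ± 0.28 (0.0491). Siglecg, a second B cell Siglec, had 39.1 and 40.6 CPM against 2.56 and 0.237 CPM and missed the threshold (4.84 ± 0.98, edgeR adjusted p = 0.0593). Siglecf had 6 and 9 counts with MHE against 19 and 19 with PBS, without overlap (-1.41 ± 0.70, edgeR adjusted p = 0.253). Siglec15 had the lowest fitted value of the list (-2.06 ± 1.15, edgeR adjusted p = 0.297). Its groups overlapped, at 0.241 and 0.737 against 3.61 and 0.473 CPM. Pilrb1, Pilra, Siglece and Mag had fitted values of 0.62, 0.03, -0.13 and 0.52. Of the 11 receptors, 8 had a positive fitted value and 3 a negative one. Without PBS replicate 1, Cd22 and Siglecg had 6.30 and 7.36, and without PBS replicate 2 3.98 and 3.97, Siglecg passing in both. Siglech had 3.22 without MHE replicate 1. Cd22 lost its call without the low-count filter (adjusted p = 0.0727), Cd33 under library totals (0.0508), and Cd33 and Siglech with the replicate number as a block (0.0547 and 0.0573).

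Of 13 genes of selectin ligands and selectins, 12 were tested, 1 rose and none fell (6 higher and 1 lower at an unadjusted p under 0.05, 5 and 1 by DESeq2, 1 and 0 by limma-voom, median 1.45). Glycam1, a sialylated mucin of high endothelial venules, had 72.1 and 28.1 CPM with MHE and 2 counts in all with PBS (edgeR adjusted p = 0.0212). Its fitted log2 fold change rests on those 2 counts and is not read as a size.

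The P-selectin ligand gene Selplg had 215 and 182 against 70.9 and 33.6 CPM (1.92 ± 0.41, edgeR adjusted p = 0.0656), and the sulfotransferase gene Chst2 1.49 ± 0.36 (0.0784). Fut7, the fucosyltransferase that completes sialyl Lewis x, had 7.47 and 3.37 against 1.37 and 0.203 CPM (2.78 ± 0.97, edgeR adjusted p = 0.148). Cd34 had the lowest value of the list (-1.04 ± 0.28, edgeR adjusted p = 0.0954). These values moved with the PBS libraries. Without PBS replicate 1, Fut7 had 4.70, Selplg 2.54 and Cd34 -1.27, all past the threshold, and Chst2 had 1.10. Without PBS replicate 2, Selplg had 1.49 and Chst2 2.0, both past it, and Fut7 had 1.99 and Cd34 -0.79.

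In the ganglioside route, 1 of 7 genes rose and none fell (2 higher and 0 lower at an unadjusted p under 0.05, by DESeq2 and by limma-voom, median 0.72). B4galnt1, which makes GM2 and GD2 from the products of St3gal5 and St8sia1, had 209 and 150 CPM with MHE and 25.4 and 8.58 CPM with PBS (3.40 ± 0.59, edgeR adjusted p = 0.0469). Ugcg, the glucosylceramide synthase at the head of the route, had 154 and 166 against 39.9 and 65.7 CPM (1.60 ± 0.31, edgeR adjusted p = 0.0539). The route's genes were thus uneven: the synthase of GM3, St3gal5, had -0.42, and the lysosomal Hexa and Gm2a -0.36 and -0.38. B4galnt1 had 4.37 without PBS replicate 1 and 2.83 without PBS replicate 2, and lost its call without the low-count filter (adjusted p = 0.0543). Ugcg had 1.26 and 2.01 without those libraries and passed in both.

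None of the 6 galactosyltransferases that build acceptor chains passed (1 higher and 1 lower at an unadjusted p under 0.05, DESeq2 1 lower, limma-voom none). B4galt1, the main one for N-glycans, had 0.42 ± 0.25 and B4galt2 -1.0 ± 0.26 (edgeR adjusted p = 0.0881, and -1.15 without PBS replicate 1, where it passed). Of 4 proteins known to carry polysialic acid, the lymph node homing receptor gene Ccr7 alone rose and none fell (1 and 0 also at an unadjusted p under 0.05, by DESeq2 and by limma-voom). It went from 6.75 and 1.05 CPM with PBS to 154 and 134 CPM with MHE (5.21 ± 0.91, edgeR adjusted p = 0.048). Ncam1, the classical carrier, had 1.20 and 1.72 against 6.35 and 1.39 CPM, with overlap (it passed lower without PBS replicate 2, at -2.11), and Nrp2 -0.29 ± 0.23. Ccr7 had 7.08 without PBS replicate 1 and 4.43 without PBS replicate 2, and lost its call without the low-count filter (adjusted p = 0.0787) and with the replicate number as a block (0.0551). As for the whole table, none of the 7 genes called in these lists passed without MHE replicate 1 or MHE replicate 2.

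**Figure D4:**
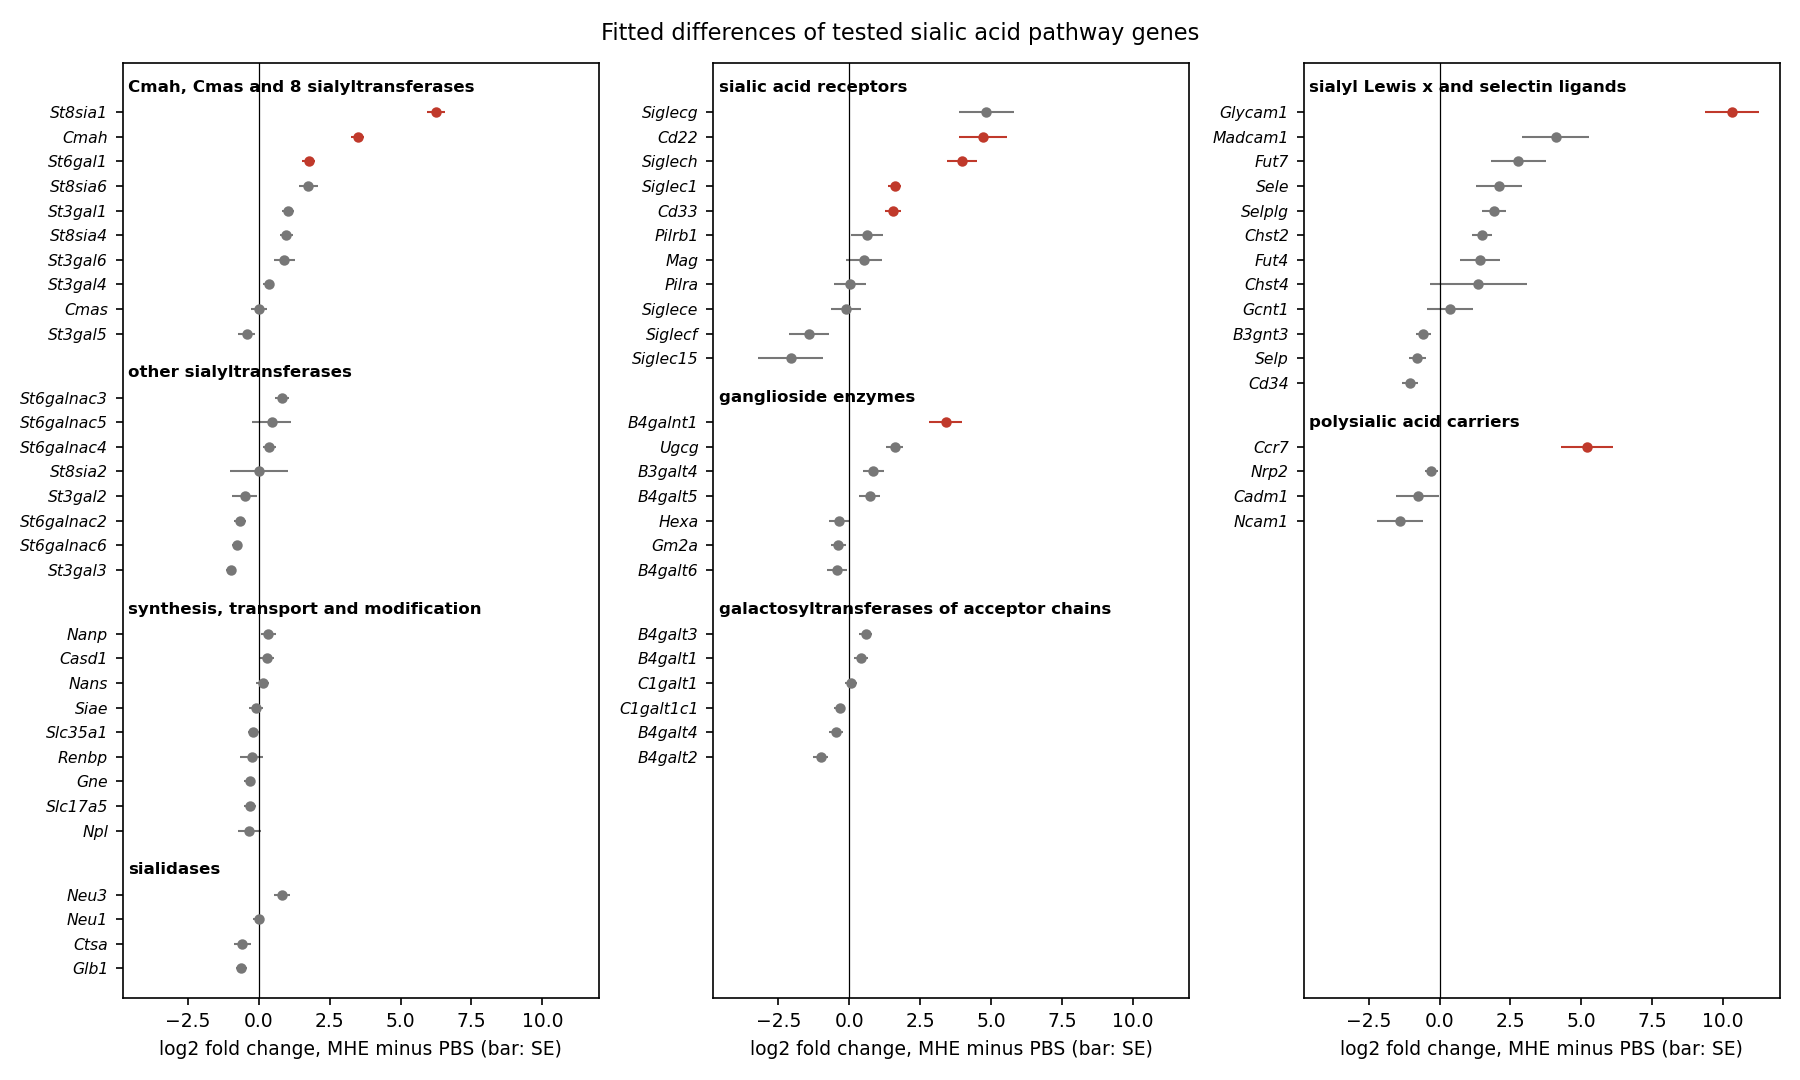
Fitted log2 fold changes, MHE minus PBS, with bars of 1 SE, for the 10 enzymes and the 61 tested genes of the 8 lists. Red points passed the edgeR test over all genes; they are 3 of the 10 enzymes and 7 of the 61 others, all to the right of 0, and the place of Glycam1 rests on 2 PBS counts.

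The genes whose course over the 4 libraries was most like that of a member were found from log2 CPM centred on its mean, by the root mean square difference, among 12669 genes. Nearest to Cmah were Bach2, a transcription repressor of lymphocytes (difference 0.089), the kinesin gene Kif21b (0.167) and the axon guidance gene Sema3a (0.19), and 8 genes lay within 0.25. Bach2 had 73.4 and 84.7 CPM with MHE against 6.82 and 7.10 CPM. Nearest to St8sia1 were Cd8b1 (0.212) and Cd8a (0.221), the chains of the T cell co-receptor, and the phosphatidylserine receptor gene Timd4 (0.214), and no other gene lay within 0.25. For St3gal5 there were 1375 genes within 0.25, Aimp2, Nrgn and Blvrb being nearest at 0.028, 0.033 and 0.036. These distances describe 4 libraries. Among the members themselves, St6gal1 (0.889) and St8sia6 (0.904) were nearest to Cmah, and Cmas (0.221) to St3gal5.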

How the data were processed

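RNA counts from the SVF of iWAT were compared between 2 MHE and 2 PBS libraries. The submitters' processing notes name TopHat2, edgeR, limma and build mm10; versions, counting program, annotation and strand setting are not stated. The deposited files hold raw counts per gene symbol. These were fitted here in edgeR 4.0.16 (R 4.3.3; filterByExpr with a minimum count of 10 and total of 15; TMM; robust quasi-likelihood), adjusted by Benjamini-Hochberg over 16196 genes and called at 0.05. A log2 fold change is the MHE minus the PBS value, and its SE is its size divided by the root of F. CPM carries the TMM factors, and levels per kb use union exon lengths. Other settings were DESeq2 1.42.0, limma-voom (limma 3.58.1), median-of-ratios or total-count scaling, no filter or a stricter one (CPM of at least 1 in 2 libraries, 50 counts in total), a block for the replicate number, and the omission of 1 library at a time, which assumes that the lone library varies like the other group. In 3 simulated draws over the 16196 genes of this comparison, the test called 4.0% of the genes given a 2-fold change, 57.3% at 4-fold, 91.3% at 16-fold, 97.3% at 64-fold and 0.119% of those left unchanged. Each draw changed only a small part of the genes, picked at any level, so these rates need not hold for a given gene.

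The members and lists were chosen with earlier results of these data known. The rule for names took all 10 members and, from each list, up to 6 genes past the threshold and the 4 of next smallest p; further list genes were named after their values were seen, and some genes are not reported here. Likeness used log2 CPM with a prior count of 2 in genes of mean log2 CPM of at least 1, leaving out provisional symbols. The T cell marker Trac was matched to no symbol. All pairs of libraries differed by more than sampling noise (chi-square per degree of freedom 134 to 524). P-values set the group difference against a spread estimated from these libraries and in part pooled over genes, and floors cover counting error only.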

Additional observations from a re-analysis of the deposited data

How the results depend on the processing

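The 3 called members stayed above 0 under all 11 alternatives, with log2 fold changes of 3.33 to 3.66 for Cmah, 6.0 to 6.53 for St8sia1 and 1.65 to 1.92 for St6gal1, and passed in all but those without an MHE library. Leaving out 1 library gave 0 to 2750 genes past the threshold (0 to 1753 higher, 0 to 1233 lower), 0 to 6 members, all higher, and 0 to 19 of the other pathway genes (0 to 16 higher, 0 to 4 lower). With all libraries these counts were 799 (643 higher, 156 lower), 3 and 7. Without MHE replicates 1 and 2, 2352 and 2596 genes (4626 in the full set) had an unadjusted p under 0.05, and so did 6 members each time. Without PBS replicate 2 the split was 1280 higher to 1233 lower. DESeq2 called 2941 genes (1721 higher, 1220 lower), 6 members and 17 pathway genes (13 higher, 4 lower). Limma-voom called 243 genes lower and 1 pathway gene lower, as did median-of-ratios scaling and the stricter filter for that 1 gene, St3gal3. Library totals called 5 members, and the analysis without a low-count filter 5 pathway genes, all higher. The cause was not tested. The replicate number as a block gave 764 genes (573 higher, 191 lower), 3 members and 5 pathway genes, all 5 higher; Cd33, Siglech and Ccr7 lost their calls (adjusted p = 0.0547, 0.0573 and 0.0551) and Ugcg gained one. The labels do not say that a number pairs libraries, and same-numbered libraries deviated together only weakly (r = 0.12 over genes, which are not independent replicates). With 2 libraries per group, differences of 2-fold were rarely called in the simulated data (4.0%). Each simulated draw changed fewer genes than the 799 called here and took them at any level. The rate is thus not a power for St8sia4 or St3gal1, whose differences were about 2-fold. The level of St8sia1 with PBS rests on 11 and 8 counts.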
